A study of Mus musculus with 18 samples.

Results

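Sox4, Sox11, Dcx, Mki67, Top2a, Cdk1, Ccnd1, Ccnd2, Mcm2 and Pcna, 10 genes of cell proliferation and of immature neurons, were followed in the cortex of adult mice of 3 genotypes. They are 10 of the 55385 genes in the tables and were taken by symbol. The list was chosen by the measured level of Sox4, which was lower in Dp16_2xIFNRs than in WT cortex, together with genes set beside it for comparison. The comparison of Dp16_2xIFNRs with WT is therefore given for these genes as a description, without p-values for their differences. Whether Sox4 passed the threshold there is stated only in a count and in the section on processing, and is not read as a result. All 10 passed the filter on low counts and were among the 18717 genes tested.

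The series holds polyA RNA-seq libraries from 6 Dp16_2xIFNRs, 6 Dp16 and 6 WT mice, 3 females and 3 males in each group. WT animals were C57BL/6J. Dp16 mice carry an additional copy of a segment of chromosome 16 and serve as a model of trisomy 21. Dp16_2xIFNRs mice carry the same duplication with the interferon receptor genes inside it returned to the normal dosage. Ages ran from 17.7 to 18.0 weeks in Dp16_2xIFNRs, from 17.1 to 18.0 weeks in Dp16 and from 17.1 to 18.0 weeks in WT. The labels give no treatment, and the duplication is present in all cells, so no cell type is singled out by the genotype. The labels call each library a sample of its group and do not speak of pooling. P-values therefore measure the spread between these samples. None of the 10 genes lies in the duplicated segment.

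Library totals were 47912340 to 61150849 counts in Dp16_2xIFNRs, 46346019 to 67281449 counts in Dp16 and 47554526 to 52006799 counts in WT. The mitochondrial share of counts was 5.60 to 6.48% in Dp16_2xIFNRs, 5.31 to 7.49% in Dp16 and 4.88 to 6.70% in WT. All 10 markers of cortical excitatory neurons were detected, with a summed level of 6214 to 7413 CPM in Dp16_2xIFNRs, 6124 to 7388 CPM in Dp16 and 6155 to 7749 CPM in WT (CPM, the count scaled to library size with TMM factors). Markers of neighbouring tissue varied between libraries of the same genotype. The summed level of 6 choroid plexus markers reached 378 CPM in Dp16 replicate 3 and 194 CPM in WT replicate 5, against medians of 17.1 CPM in Dp16 and 17.3 CPM in WT. Striatal neuron markers ran from 346 to 1309 CPM in Dp16_2xIFNRs, from 354 to 992 CPM in Dp16 and from 376 to 1144 CPM in WT. WT replicate 6 had the lowest sum of its group for markers of several cell types, given with the Sox4 results.

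Cells divide by passing through an ordered cycle. D-type cyclins, among them those of Ccnd1 and Ccnd2, activate the kinases that open the way into DNA synthesis. The helicase subunit encoded by Mcm2 and the sliding clamp encoded by Pcna then serve at the replication fork. The kinase encoded by Cdk1 drives entry into mitosis, the topoisomerase encoded by Top2a untangles sister chromosomes, and the Ki-67 protein encoded by Mki67 coats mitotic chromosomes and is the common stain for dividing cells. In the adult cortex division is largely limited to oligodendrocyte precursors, microglia and vessel cells. Sox4 and Sox11 encode related transcription factors that switch on neuronal genes in newborn neurons, and Dcx encodes doublecortin, a microtubule protein of migrating young neurons. Adult cortex has few such neurons. Several of the 10 genes are also used outside these settings: Ccnd1 and Ccnd2 are expressed in glia, Sox4 in vessel and immune cells and Pcna in DNA repair.

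Promoters of the mitotic genes carry short words that bind the repressor and activator complexes of the cell cycle. Known from human and mouse cells, these are the cell cycle genes homology region, searched here as TTTGAA or TTTAAA on either strand, and the CCAAT box bound by NF-Y. The promoters of the mitotic genes Mki67, Cdk1 and Top2a are shown with that of Sox4 to compare the words in the genes that mark division with those of the gene around which the list was built. Sequences are from RefSeq on build GRCm38.p6, run from 250 bases before to 50 bases after the annotated start, and are read 5′ to 3′ on the minus strand. Capitals mark the words of the cell cycle genes homology region and the CCAAT boxes.
Mki67, chr7:135716330-135716629: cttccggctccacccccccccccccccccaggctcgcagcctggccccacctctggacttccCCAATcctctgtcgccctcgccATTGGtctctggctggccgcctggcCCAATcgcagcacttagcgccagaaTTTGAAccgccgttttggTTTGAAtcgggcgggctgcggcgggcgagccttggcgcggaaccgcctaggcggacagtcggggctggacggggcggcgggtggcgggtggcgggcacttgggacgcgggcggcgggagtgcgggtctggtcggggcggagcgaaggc
Cdk1, chr10:69352863-69353162: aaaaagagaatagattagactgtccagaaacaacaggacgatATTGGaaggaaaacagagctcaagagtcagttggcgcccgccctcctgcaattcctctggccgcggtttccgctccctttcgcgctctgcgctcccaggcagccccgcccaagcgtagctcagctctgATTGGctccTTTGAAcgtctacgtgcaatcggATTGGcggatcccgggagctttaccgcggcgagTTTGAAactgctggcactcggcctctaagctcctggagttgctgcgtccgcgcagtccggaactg
Top2a, chr11:99024140-99024439: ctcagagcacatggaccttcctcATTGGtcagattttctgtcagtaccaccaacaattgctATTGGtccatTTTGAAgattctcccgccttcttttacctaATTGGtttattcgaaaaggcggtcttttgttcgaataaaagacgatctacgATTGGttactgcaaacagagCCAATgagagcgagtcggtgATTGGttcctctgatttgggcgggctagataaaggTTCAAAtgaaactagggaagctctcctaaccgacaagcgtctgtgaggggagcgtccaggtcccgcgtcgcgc
Sox4, chr13:28953650-28953949: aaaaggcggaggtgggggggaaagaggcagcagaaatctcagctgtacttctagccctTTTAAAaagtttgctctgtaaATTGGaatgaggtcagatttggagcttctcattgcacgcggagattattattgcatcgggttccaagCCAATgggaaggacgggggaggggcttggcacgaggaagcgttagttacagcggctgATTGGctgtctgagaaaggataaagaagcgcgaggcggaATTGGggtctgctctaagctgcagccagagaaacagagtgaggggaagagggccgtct

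The Mki67 promoter held 2 words of the cell cycle genes homology region and 3 CCAAT boxes. That of Cdk1 held 2 and 3, that of Top2a 2 and 6, and that of Sox4 1 and 4. The Cdk1 window also held an E2F word, TTTCGCGC, at position -131 from the start (searched as TTTCGCGC, TTTGGCGC, TTTCCCGC or TTTGCCGC on either strand). No words overlapped in these 4 windows. Among all 32851 promoters of the table, 6.37% held at least 2 words of the cell cycle genes homology region, 3.37% held at least 3 CCAAT boxes, and 66 promoters, or 0.201%, held both. Those cuts are the counts held by Mki67 and Cdk1. At least 1 word of the cell cycle genes homology region was present in 27.6% of all promoters, and at least 1 CCAAT box in 37.4%. At least 1 such word with at least 2 CCAAT boxes, a rule that Sox4 meets with its 1 and 4, was present in 3.13%. That rule is looser than the counts of Sox4, so 3.13% and 0.201% are at unlike cuts and are not compared. An E2F word was present in 2.26%. Of the other members in the table, Sox11 and Mcm2 held 1 word of each of the first kinds, and Pcna and Dcx held 1 CCAAT box and no other word. No promoter of Ccnd1 or Ccnd2 was in the table, so a promoter was available for 8 of 10 genes. These word matches describe the letters in the windows and show no binding.

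All 10 genes lie on minus strands in GENCODE release M21 on build GRCm38. Sox4 spans chr13:28948919-28953713 and Sox11 chr12:27334264-27342574. For both, the length used for RPKM, 4795 and 8311 bases, equals the span, so the annotation holds no intron. Dcx lies at chrX:143855842-143933311, Mki67 at chr7:135689784-135716361, Top2a at chr11:98992943-99024189 and Cdk1 at chr10:69335146-69352938. Ccnd1 lies at chr7:144929931-144939925, Ccnd2 at chr6:127125162-127152193, Mcm2 at chr6:88883474-88898780 and Pcna at chr2:132249162-132253314. LTO1, on the opposite strand, overlaps Ccnd1 over 1771 bases and had 24.03% of the counts of Ccnd1. The transcript 9330179D12Rik overlaps Ccnd2 on the opposite strand and had 2.57% of its counts. The strand setting of the counting is not given in the sources used here, so reads of these overlaps may be shared.

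Per length, the mitotic genes were the lowest of the 10 and the clamp and cyclin genes the highest. Mean RPKM over the 18 libraries (reads scaled to gene length and library size, as deposited) was 17.8 ± 1.05 for Pcna, 13.8 ± 1.21 for Ccnd1 and 11.7 ± 1.68 for Ccnd2 (SD, n = 18 libraries). Sox4 followed with 5.23 ± 0.704, Dcx with 2.35 ± 0.342, Sox11 with 2.24 ± 0.491 and Mcm2 with 1.47 ± 0.134 RPKM. Top2a stood at 0.263 ± 0.0575, Mki67 at 0.138 ± 0.0320 and Cdk1 at 0.0504 ± 0.0167 RPKM. The library ranges of neighbours in this order overlapped for Ccnd1 and Ccnd2, for Dcx and Sox11, for Sox11 and Mcm2, for Top2a and Mki67, and for Mki67 and Cdk1. Those of Pcna and Ccnd1, of Ccnd2 and Sox4, of Sox4 and Dcx, and of Mcm2 and Top2a did not. By mean RPKM, 81.0% of tested genes lay below Pcna, 55.8% below Sox4, 41.6% below Dcx, 12.8% below Top2a, 6.40% below Mki67 and 0.801% below Cdk1. Cdk1 was near the limit of detection, at 7 to 24 counts per library, and its spread over the 18 libraries was the widest of the 10, with a coefficient of variation of 33.3% in CPM against 6.497% for Pcna.

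**Figure D1:**
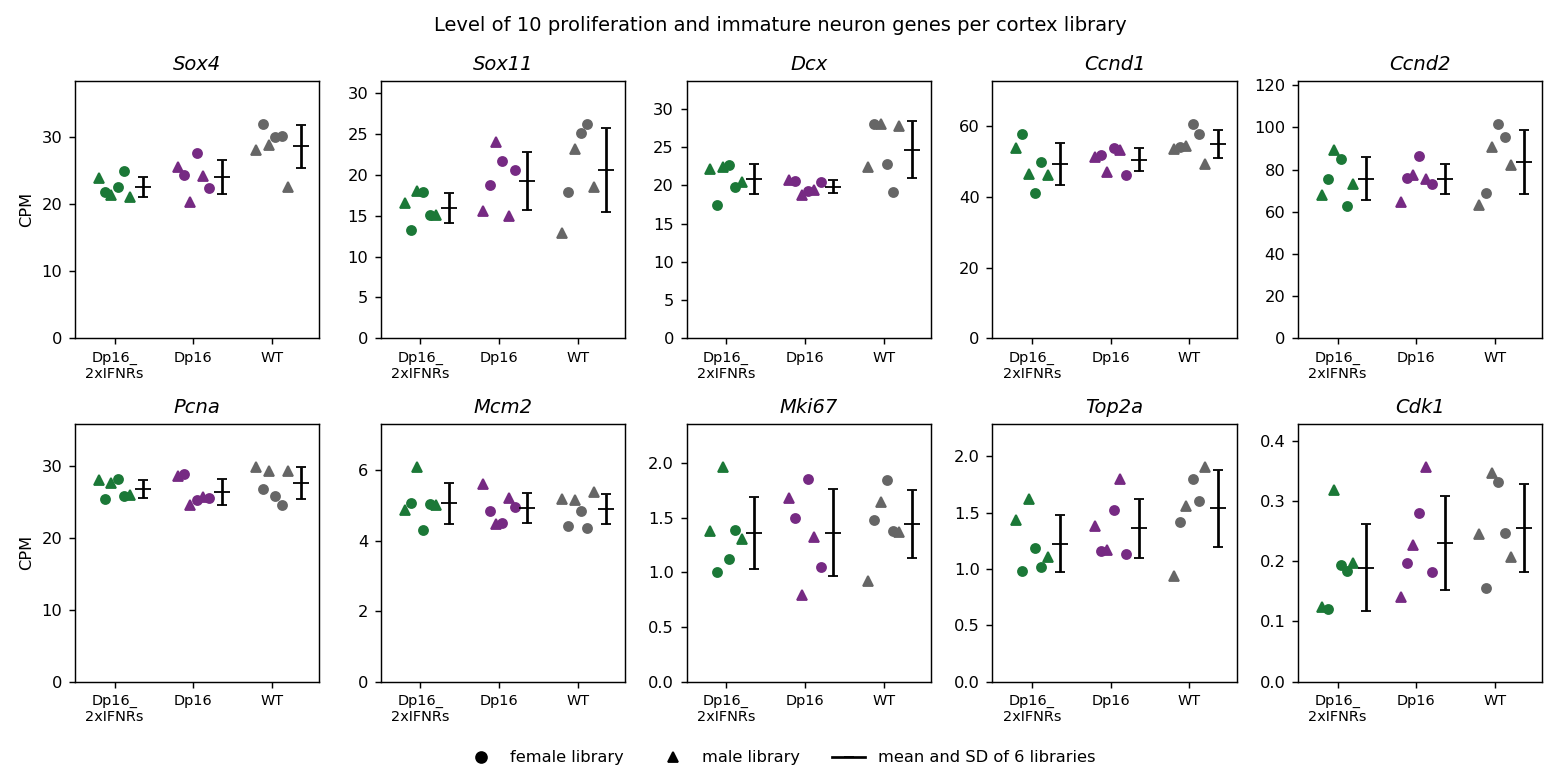
CPM of each of the 10 genes (vertical axes, each from 0) in every library of Dp16_2xIFNRs, Dp16 and WT (horizontal axis). Circles are female and triangles male libraries, and the bar gives mean and SD of 6 libraries; Sox4 sits between 21.1 and 24.9 CPM in Dp16_2xIFNRs, and 5 of 6 WT libraries sit between 28.1 and 32.0 CPM.

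By group means Sox4 was lowest in Dp16_2xIFNRs, intermediate in Dp16 and highest in WT. The 6 Dp16_2xIFNRs libraries ran from 21.1 to 24.9 CPM (median 22.1), the Dp16 libraries from 20.4 to 27.6 CPM (median 24.3) and the WT libraries from 22.6 to 32.0 CPM (median 29.5). Both duplication genotypes overlapped WT through 1 library, WT replicate 6, at 22.6 CPM. The other 5 WT libraries, at 28.1 CPM or more, were above every Dp16_2xIFNRs and every Dp16 library. Means were 22.6 ± 1.49 CPM in Dp16_2xIFNRs, 24.1 ± 2.49 CPM in Dp16 and 28.6 ± 3.25 CPM in WT (SD, n = 6 each), with 1146 to 1390 counts per library in Dp16_2xIFNRs, 1109 to 1631 in Dp16 and 1089 to 1645 in WT. The log2 fold change was -0.34 (SE 0.0718) in Dp16_2xIFNRs against WT, the value around which the list was built, and -0.09 (SE 0.0719) against Dp16. In Dp16 against the same 6 WT libraries it was -0.25 (SE 0.0718, adjusted p = 0.179), which missed the threshold of 0.05. Without WT replicate 6 the Dp16 difference was -0.30 and passed (adjusted p = 0.0303). It passed in only this 1 of 30 alternative settings, 18 of which left out 1 library. The highest adjusted p among them was 0.393, without WT replicate 2. The WT values of Sox4 also entered the choice of the list, so these p-values for Dp16 are not independent of it. In bulk tissue, fewer cells that express a gene and less of its RNA per cell cannot be told apart.

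Sox11, the relative of Sox4, varied more between libraries of a genotype. It ran from 13.3 to 18.0 CPM in Dp16_2xIFNRs (median 15.8), from 15.0 to 23.95 CPM in Dp16 (median 19.7) and from 12.9 to 26.2 CPM in WT (median 20.8). The WT range held both the lowest and the highest of all 18 values, so the groups overlapped widely. Means were 15.98 ± 1.85 CPM in Dp16_2xIFNRs, 19.3 ± 3.52 CPM in Dp16 and 20.6 ± 5.11 CPM in WT (SD, n = 6 each). The log2 fold change was -0.36 (SE 0.151) in Dp16_2xIFNRs against WT, of like size to that of Sox4 with a wider error. It was -0.26 (SE 0.151, adjusted p = 1) in Dp16_2xIFNRs against Dp16 and -0.09 (SE 0.150, adjusted p = 0.937) in Dp16 against WT.

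Dcx, the marker of migrating young neurons, was narrowest in Dp16, where all 6 libraries lay between 18.7 and 20.7 CPM (median 19.9). In Dp16_2xIFNRs it ran from 17.5 to 22.6 CPM (median 21.3), and in WT from 19.1 to 28.01 CPM (median 25.2). WT libraries fell apart into 3 at 27.7 to 28.01 CPM and 3 at 19.1 to 22.8 CPM, and the lowest of them lay inside the ranges of both duplication genotypes. Means were 20.8 ± 2.00 CPM in Dp16_2xIFNRs, 19.8 ± 0.823 CPM in Dp16 and 24.7 ± 3.77 CPM in WT (SD, n = 6 each). The log2 fold change was -0.24 (SE 0.0834) in Dp16_2xIFNRs against WT and 0.07 (SE 0.0836, adjusted p = 1) against Dp16. In Dp16 against WT it was -0.32 (SE 0.0836, adjusted p = 0.108), which missed the threshold. This difference passed without WT replicate 5, at 19.1 CPM the lowest WT library, with a log2 fold change of -0.38 (adjusted p = 0.0171), and passed by DESeq2 (adjusted p = 0.0309). These were the only 2 of 30 alternative settings in which it passed, and 1 of the 18 that left out 1 library. The highest adjusted p was 0.316, without WT replicate 2.

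Of the D-type cyclins, Ccnd1 was 41.1 to 57.8 CPM in Dp16_2xIFNRs (median 48.3), 46.3 to 53.8 CPM in Dp16 (median 51.5) and 49.3 to 60.7 CPM in WT (median 54.4). Ccnd2, the other D-type cyclin, was 62.8 to 89.4 CPM in Dp16_2xIFNRs (median 74.5), 64.7 to 86.2 CPM in Dp16 (median 75.9) and 63.4 to 102 CPM in WT (median 86.4). For both genes the highest library was a WT female, replicate 4, for Ccnd1 at 60.7 and for Ccnd2 at 102 CPM, and all groups overlapped. Ccnd1 averaged 49.3 ± 5.95 CPM in Dp16_2xIFNRs, 50.6 ± 3.15 CPM in Dp16 and 55.0 ± 3.86 CPM in WT (SD, n = 6 each). Its log2 fold change was -0.16 (SE 0.0689) in Dp16_2xIFNRs against WT, -0.04 (SE 0.0689, adjusted p = 1) against Dp16, and -0.12 (SE 0.0689, adjusted p = 0.670) in Dp16 against WT. Ccnd2 averaged 75.7 ± 10.1 CPM in Dp16_2xIFNRs, 75.5 ± 6.92 CPM in Dp16 and 83.7 ± 15.0 CPM in WT (SD, n = 6 each). Its log2 fold change was -0.14 (SE 0.109) in Dp16_2xIFNRs against WT, 0.00 (SE 0.109, adjusted p = 1) against Dp16, and -0.15 (SE 0.109, adjusted p = 0.785) in Dp16 against WT. The means of both cyclins thus lay below WT in both duplication genotypes, by less than the SD of the WT libraries for Ccnd2 and by more than it for Ccnd1.

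The replication genes Pcna and Mcm2 had the smallest coefficients of variation in CPM over all 18 libraries, 6.497% and 9.32%, though within Dp16_2xIFNRs Mcm2 varied more than Sox4 (11.5% against 6.58%). Pcna was 25.4 to 28.2 CPM in Dp16_2xIFNRs (median 26.9), 24.7 to 28.9 CPM in Dp16 (median 25.7) and 24.7 to 29.9 CPM in WT (median 28.1). Mcm2 was 4.29 to 6.09 CPM in Dp16_2xIFNRs (median 5.03), 4.46 to 5.60 CPM in Dp16 (median 4.91) and 4.37 to 5.38 CPM in WT (median 4.99). The WT range of Pcna held every library of both other genotypes, and that of Mcm2 lay within the range of Dp16_2xIFNRs. The log2 fold change of Pcna was -0.04 (SE 0.0541) in Dp16_2xIFNRs against WT, 0.02 (SE 0.0540, adjusted p = 1) against Dp16, and -0.06 (SE 0.0541, adjusted p = 0.838) in Dp16 against WT. The 95% interval of the Dp16 difference ran from -0.18 to 0.05. Mcm2 was the only member with a mean above WT in both duplication genotypes, with a log2 fold change of 0.05 (SE 0.0809) in Dp16_2xIFNRs and 0.01 (SE 0.0811, adjusted p = 0.988) in Dp16, whose 95% interval ran from -0.16 to 0.19. In Dp16 against WT its sign was kept in 26 of 30 alternative settings.

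The mitotic genes Mki67, Top2a and Cdk1 were sparse and imprecise. Mki67 ran from 1.00 to 1.96 CPM in Dp16_2xIFNRs (median 1.34), from 0.787 to 1.85 CPM in Dp16 (median 1.41) and from 0.920 to 1.85 CPM in WT (median 1.43). Top2a ran from 0.984 to 1.63 CPM in Dp16_2xIFNRs (median 1.14), from 1.13 to 1.80 CPM in Dp16 (median 1.28) and from 0.940 to 1.91 CPM in WT (median 1.58). Single libraries of every genotype were high and others low, and all ranges overlapped. WT replicate 1 was the lowest WT library for both Mki67 and Top2a. Cdk1 ran from 0.121 to 0.318 CPM in Dp16_2xIFNRs (median 0.189), from 0.140 to 0.356 CPM in Dp16 (median 0.212) and from 0.156 to 0.347 CPM in WT (median 0.246). Each Cdk1 value rests on few reads, 7 to 17 counts in Dp16_2xIFNRs, 7 to 24 in Dp16 and 8 to 18 in WT.

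For Mki67 the log2 fold change was -0.08 (SE 0.209) in Dp16_2xIFNRs against WT, 0.00 (SE 0.209, adjusted p = 1) against Dp16, and -0.08 (SE 0.209, adjusted p = 0.967) in Dp16 against WT. For Top2a the values were -0.34 (SE 0.174), -0.16 (SE 0.174, adjusted p = 1) and -0.18 (SE 0.173, adjusted p = 0.863) in the same order. For Cdk1 they were -0.44 (SE 0.296), -0.30 (SE 0.296, adjusted p = 1) and -0.14 (SE 0.290, adjusted p = 0.960). Cdk1 thus had the lowest fold change of the list in Dp16_2xIFNRs against WT with the widest error. The 95% interval of the Dp16 difference ran from -0.53 to 0.37 for Mki67, from -0.55 to 0.19 for Top2a and from -0.76 to 0.48 for Cdk1. Changes of either sign within these intervals were compatible with the counts. The intervals are not limits of detection.

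**Figure D2:**
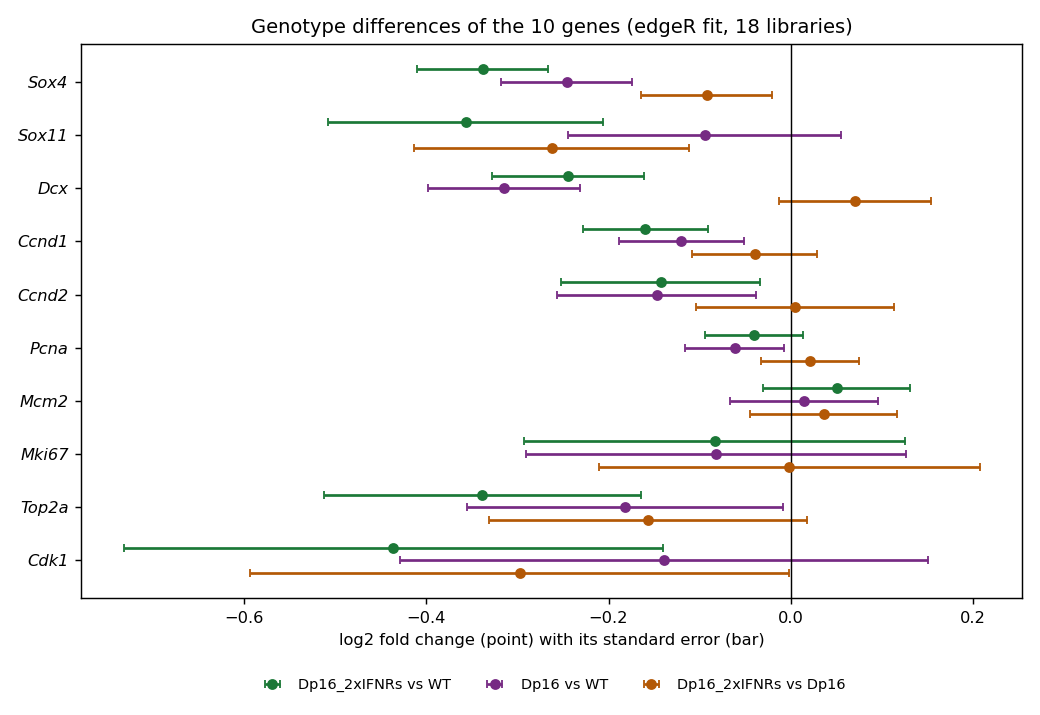
Log2 fold change (horizontal axis) of each gene (vertical axis) with its standard error, for Dp16_2xIFNRs vs WT, Dp16 vs WT and Dp16_2xIFNRs vs Dp16, from the edgeR fit to 18 libraries. In both comparisons with WT, 9 of 10 points lie below 0, among them Sox4, by which the list was chosen, with Mcm2 at 0.05 and 0.01 above it.

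In Dp16_2xIFNRs against WT, 1 of 10 members stood past the threshold, Sox4 itself, by which the list was chosen. The count restates that choice and nothing is read from it. Of all genes tested 1.05% were called there, and 0.31% were called lower. In Dp16 against WT, edgeR's quasi-likelihood test called 0 of 10 members, against 0.748% of all genes tested (0.112% lower). At an unadjusted p under 0.05 there were 2 of 10, Sox4 and Dcx, both lower, against 8.84% of all genes (3.82% lower). DESeq2 called 1, Dcx, and limma-voom 0. The list was chosen by Sox4 being low against these same WT libraries, so the p-value of Sox4 in Dp16 is not independent of that choice. Apart from Sox4, only Dcx is counted, and no excess over all genes is read from the 2. In Dp16_2xIFNRs against Dp16, edgeR called 0 of 10 members, against 0.0214% of all genes, with 0 at an unadjusted p under 0.05, against 2.19% of all genes, and 0 by DESeq2. The ranges of 2 genotypes were separate for 0 of 10 members in each of the 3 comparisons, where 1.34% of all genes had separate ranges in Dp16_2xIFNRs against WT, 0.919% in Dp16 against WT and 0.107% in Dp16_2xIFNRs against Dp16.

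In both comparisons with WT, 9 of 10 members were below 0. Sox4, by which the list was chosen, is among the 9 and enters the medians, so its direction was set by that choice. The median log2 fold change over the members was -0.20 in Dp16_2xIFNRs against WT and -0.13 in Dp16 against WT, where it was 0.00 over all genes tested in each. The comparisons share the 6 WT libraries and are not independent of each other. In Dp16_2xIFNRs against Dp16, 6 of 10 were below 0 and the median was -0.02.

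The 5 genes that followed Sox4 most closely over the 18 libraries were found by Pearson's r of log2 CPM among 14573 genes with a mean of at least 1 CPM. They were the formin gene Fmnl3 (r = 0.921, Spearman's rho = 0.932), Mllt6, which encodes a chromatin protein (0.880, rho = 0.818), Ppp1r9b, which encodes the dendritic spine protein spinophilin (0.868, rho = 0.802), 4933431E20Rik (0.866, rho = 0.792) and P2ry12, which encodes a purine receptor of microglia (0.859, rho = 0.812). They were picked as the highest of many, so these values carry no test. With the means of genotype and sex removed, r with Sox4 was 0.838 for Fmnl3 and 0.828 for P2ry12, and 0.722 to 0.751 for the other 3. Fmnl3 averaged 14.8 ± 1.15 CPM in Dp16_2xIFNRs, 15.1 ± 0.991 CPM in Dp16 and 18.0 ± 1.72 CPM in WT (SD, n = 6 each). P2ry12 averaged 33.7 ± 2.78 CPM in Dp16_2xIFNRs, 34.9 ± 4.49 CPM in Dp16 and 42.9 ± 8.11 CPM in WT (SD, n = 6 each). All 5 had the Sox4 order of the group means. The choice by r kept the genotype differences, so this order follows in part from it. Among the other members, Ccnd1 was nearest to Sox4, with r = 0.674 at rank 309, and Sox11, its relative, had r = 0.295 at rank 3450.

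Summed markers of several cell types were low in the WT library with low Sox4, WT replicate 6, and those of microglia are given first because P2ry12 was among the genes most like Sox4. The summed level of 7 microglia markers was 374 to 442 CPM in Dp16_2xIFNRs (median 395), 372 to 452 CPM in Dp16 (median 407) and 318 to 496 CPM in WT (median 453), and none of the 7 was at 0. WT replicate 6 had the lowest sum, 318 CPM, while the other 5 WT libraries were at 446 CPM or more. In Dp16_2xIFNRs against WT, 7 of 7 markers, P2ry12 among them, stood below WT (median log2 fold change -0.10), with 0 called and 2 at an unadjusted p under 0.05. In Dp16 against WT, 5 of 7 were below with a median of -0.09 and 0 called. P2ry12 had a log2 fold change of -0.35 (SE 0.116) in Dp16_2xIFNRs and -0.29 (SE 0.116) in Dp16, and was called in neither. It was picked for following Sox4 over these same libraries. Its differences, and its place in the counts of markers below WT, depend in part on that choice and are a description. WT replicate 6 was also the lowest WT library in astrocyte markers, at 5030 CPM where the other 5 were at 6725 CPM or more. It was lowest in endothelial markers, at 228 CPM against 320 CPM or more in the other 5, and in meningeal and pericyte markers, at 240 CPM against 332 CPM or more. Cortical excitatory neuron markers were 6155 CPM in it and 6842 CPM or more in the other 5, and the neural progenitor genes 408 CPM against 527 CPM or more. It was not lowest in mature oligodendrocyte or interneuron markers, and its mitosis gene sum was the highest in WT. In Dp16, replicates 3 and 6, which were lowest in Sox4, had excitatory neuron sums of 6442 and 6124 CPM where the other 4 were at 6965 CPM or more. In Dp16_2xIFNRs, replicate 5, the highest in Sox4, had the lowest excitatory neuron sum, 6214 CPM. By group, white blood cell markers were higher in the duplication genotypes, with a sum of 5.52 to 7.36 CPM in Dp16_2xIFNRs, 6.14 to 7.42 CPM in Dp16 and 3.69 to 6.27 CPM in WT, and WT replicate 6 was again the lowest of all 18 libraries. The part of microglia, neurons and the other cell types in the Sox4 difference was not tested.

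**Figure D3:**
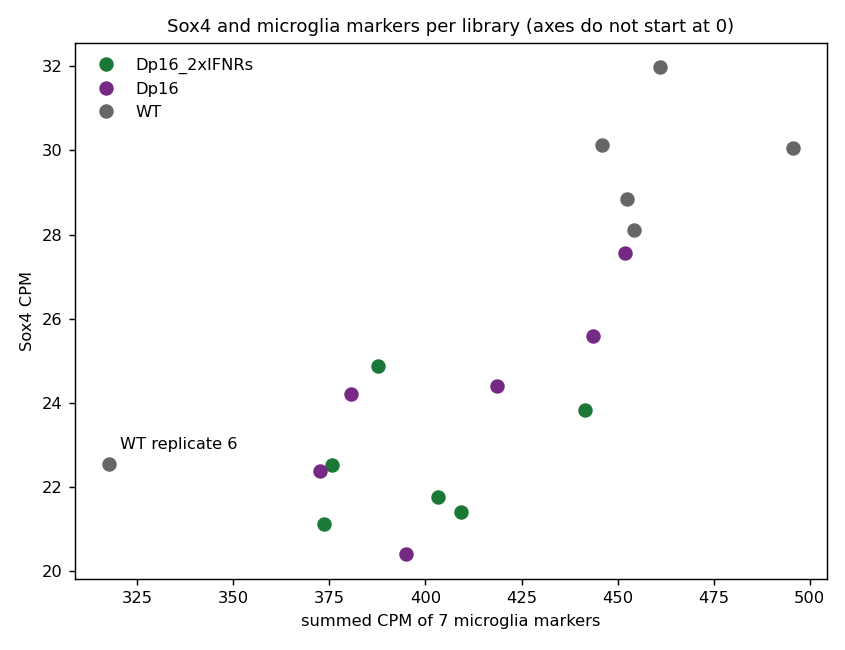
Sox4 CPM (vertical axis) against the summed CPM of 7 microglia markers (horizontal axis), 1 point per library, coloured by genotype; neither axis starts at 0. WT replicate 6, at 318 CPM of markers and 22.6 CPM of Sox4, stands apart from the other 5 WT libraries at 446 CPM or more of markers.

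To see which members vary together among animals of a genotype, the means of genotype and sex were removed and all 45 pairs were correlated over the 18 libraries. Of the 45 pairs 29 were positive, and the median r was 0.12. Sox11 and Ccnd2 were the closest pair, with Pearson's r = 0.756 (permutation p = 0.0011, adjusted over 45 pairs p = 0.0495) and Spearman's rho = 0.734 (adjusted permutation p = 0.0421). Without the 2 libraries farthest from the median of Sox11, r was 0.719, and without those of Ccnd2 it was 0.674. Cdk1 and Ccnd2 had r = 0.674 (adjusted permutation p = 0.0557) and rho = 0.736 (adjusted permutation p = 0.0421), with r = 0.584 and 0.855 after such removals. The proliferation markers Mki67 and Top2a had r = 0.695 (adjusted permutation p = 0.0557) and rho = 0.641, and r = 0.544 after either removal. Dcx and Pcna had r = 0.604 (adjusted permutation p = 0.0613), and Top2a and Ccnd2 had r = 0.647 (adjusted permutation p = 0.0644). Thus 1 pair passed by Pearson's r, close to the threshold, and 2 by Spearman's rho. The permutations took no account of the replicate numbers that libraries of different genotypes share. Sox4 and Sox11 had r = -0.15, Sox11 and Dcx 0.05, and Sox4 and Dcx 0.02, each with an adjusted permutation p of 0.840 or more. The lowest value was that of Dcx and Ccnd1, -0.48.

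**Figure D4:**
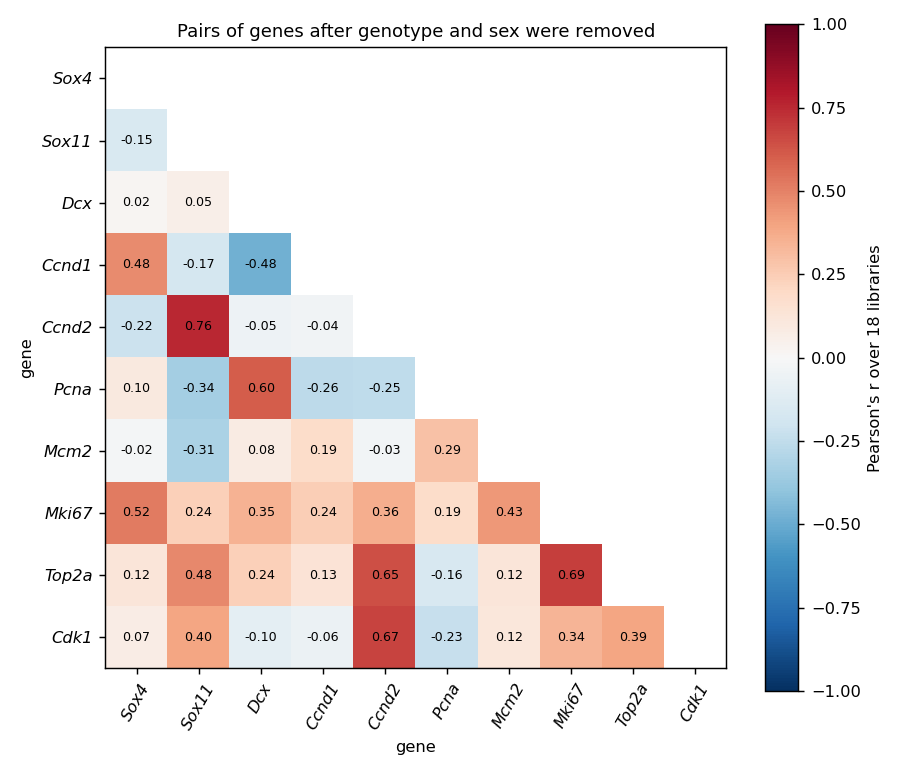
Pearson's r over 18 libraries for each pair of the 10 genes (both axes) after the means of genotype and sex were removed; red is positive and blue negative. Sox11 with Ccnd2 is the highest at 0.76, and Dcx with Ccnd1 the lowest at -0.48.

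Genes that act beside the members were followed in 6 lists. Of all genes tested, 11.5% in Dp16_2xIFNRs and 8.84% in Dp16 were at an unadjusted p under 0.05 against WT. DNA replication genes, 31 tested of 32, were below WT for 23 in Dp16_2xIFNRs (median log2 fold change -0.06) and for 23 in Dp16 (-0.09), with 0 called in either. At an unadjusted p under 0.05 there were 0 in Dp16_2xIFNRs and 3 in Dp16. The lowest p in Dp16_2xIFNRs belonged to Rrm1, a subunit of ribonucleotide reductase (-0.13, adjusted p = 0.455), and to the histone mRNA binding gene Slbp (0.11, adjusted p = 0.460). In Dp16 they belonged to the thymidine kinase gene Tk1 (0.78, adjusted p = 0.518), at 0.269 ± 0.124 CPM in Dp16 and 0.158 ± 0.0308 CPM in WT, and to Rpa2 of the single-strand binding complex (-0.19, adjusted p = 0.557).

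Mitosis genes, 39 tested of 40, were below WT for 30 in Dp16_2xIFNRs (median -0.10) and for 22 in Dp16 (-0.02), with 0 called and 2 at an unadjusted p under 0.05 in each. In Dp16_2xIFNRs the condensin gene Smc4 was at 0.18 (adjusted p = 0.311) and Anln, which encodes the cytokinesis protein anillin, at -0.22 (adjusted p = 0.403). In Dp16, Anln was at -0.32 (adjusted p = 0.242) and the checkpoint kinase gene Bub1b at -0.57 (adjusted p = 0.368). Neither list thus held a gene that passed. More genes of both lists stood below WT than above it, with medians from -0.10 to -0.02. Whether the lists differ as sets was not tested.

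Regulators of the G1 phase, 25 tested of 26, were below WT for 13 in Dp16_2xIFNRs and 15 in Dp16, with a median of -0.01 in each and 0 called. At an unadjusted p under 0.05 there were 4 in Dp16_2xIFNRs, all lower, and 1 in Dp16. Cdkn1c, the cyclin-dependent kinase inhibitor p57, averaged 6.30 ± 0.748 CPM in Dp16_2xIFNRs and 8.42 ± 1.71 CPM in WT (SD, n = 6 each). Its log2 fold change was -0.41 (SE 0.118, adjusted p = 0.123). The difference passed by DESeq2 (adjusted p = 0.0359) and without WT replicate 6 (-0.50, adjusted p = 0.01465). It also passed with age as a further term (-0.46, adjusted p = 0.0278) and with the replicate number as a block (-0.40, adjusted p = 0.0248). The inhibitor gene Cdkn2c was at -0.41 (adjusted p = 0.241) in Dp16_2xIFNRs. In Dp16, the inhibitor gene Cdkn1a, known as a target of p53, was at 0.41 (adjusted p = 0.524) and Ccnd3, which encodes a D-type cyclin, at 0.13 (adjusted p = 0.627).

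Among immature neuron genes, 34 tested of 35, the noncoding RNA Dlx6os1 of the Dlx5 and Dlx6 locus rose in Dp16_2xIFNRs, to 16.9 ± 1.42 CPM against 13.3 ± 1.34 CPM in WT (SD, n = 6 each; log2 fold change 0.35, SE 0.0767, adjusted p = 0.0302). It is known from interneuron development, and its direction was the opposite of that of Sox4, Sox11 and Dcx. It is transcribed antisense to Dlx6, so without a stated strand setting its reads cannot be told apart from those of Dlx6. The call held in 12 of 18 fits that left out 1 library, and ended without WT replicate 1, 2 or 4 or Dp16_2xIFNRs replicate 2, 3 or 5, at an adjusted p of up to 0.0902 without Dp16_2xIFNRs replicate 2. Dp16 averaged 16.2 ± 1.64 CPM of Dlx6os1 (0.28, SE 0.0768, adjusted p = 0.129). The symbol is on 2 rows of the tables, and the row with the higher mean was used. In Dp16_2xIFNRs 23 of the 34 genes were below WT (median -0.05), 1 was called, and 8 were at an unadjusted p under 0.05, 7 of them lower. Sox12, the third member of the Sox4 and Sox11 group, was at -0.32 (SE 0.0976, adjusted p = 0.145), with 19.0 ± 2.50 CPM in Dp16_2xIFNRs, 20.6 ± 2.77 CPM in Dp16 and 23.7 ± 2.34 CPM in WT (SD, n = 6 each). Neurod2, a neuronal transcription factor gene, was at -0.22 (adjusted p = 0.210). In Dp16, 20 of 34 were below WT (median -0.02), 0 were called and 5 were at an unadjusted p under 0.05, and Neurod1 was at -0.25 (adjusted p = 0.298).

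Neural progenitor genes, 22 tested of 23, were below WT for 14 in Dp16_2xIFNRs (median -0.11) and for 13 in Dp16 (-0.10), with 0 called. At an unadjusted p under 0.05 there were 9 in Dp16_2xIFNRs, 7 of them lower, and 3 in Dp16. The matrix gene Tnc averaged 3.71 ± 0.549 CPM in Dp16_2xIFNRs, 3.52 ± 0.894 CPM in Dp16 and 5.68 ± 2.19 CPM in WT (SD, n = 6 each), with log2 fold changes of -0.60 (adjusted p = 0.192) and -0.70 (adjusted p = 0.165) against WT. Without WT replicate 6 both passed, at -0.74 (adjusted p = 0.0234) in Dp16_2xIFNRs and -0.84 (adjusted p = 0.0114) in Dp16. Lhx2 was at -0.19 (adjusted p = 0.336) in Dp16_2xIFNRs and Prom1, which encodes prominin, at 0.21 (adjusted p = 0.371) in Dp16. Many of these genes are also expressed by adult astrocytes, whose 6 markers summed to 5654 to 7579 CPM in Dp16_2xIFNRs, 5708 to 7719 CPM in Dp16 and 5030 to 7792 CPM in WT. The part of astrocytes in these values was not tested.

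Oligodendrocyte precursors are the main dividing cells of the adult cortex. Of their 14 markers, all tested, 13 were below WT in Dp16_2xIFNRs (median -0.07, 0 at an unadjusted p under 0.05) and 7 in Dp16 (0.00, 1 at an unadjusted p under 0.05), with 0 called in either. Their sum was 686 to 887 CPM in Dp16_2xIFNRs, 754 to 916 CPM in Dp16 and 719 to 1018 CPM in WT. Enpp6, a marker of newly forming oligodendrocytes, was at -0.18 (adjusted p = 0.476) in Dp16_2xIFNRs and -0.34 (SE 0.0934, adjusted p = 0.124) in Dp16, and passed in Dp16 by DESeq2 (adjusted p = 0.0323) and without Dp16 replicate 1 (adjusted p = 0.0480). Markers of mature oligodendrocytes stood the other way in Dp16_2xIFNRs, with 6 of 6 above WT (median 0.14), 0 called and 3 at an unadjusted p under 0.05. Of these the myelin gene Mobp averaged 326 ± 37.2 CPM in Dp16_2xIFNRs and 242 ± 30.0 CPM in WT (SD, n = 6 each; log2 fold change 0.43, SE 0.104, adjusted p = 0.0572), and was named after its values were seen. In Dp16, 5 of 6 were above WT (median 0.05), with 0 called. Among the precursor markers, Ptprz1 was at -0.24 (adjusted p = 0.477) in Dp16_2xIFNRs and Bmp4 at -0.20 (adjusted p = 0.825) in Dp16.

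**Figure D5:**
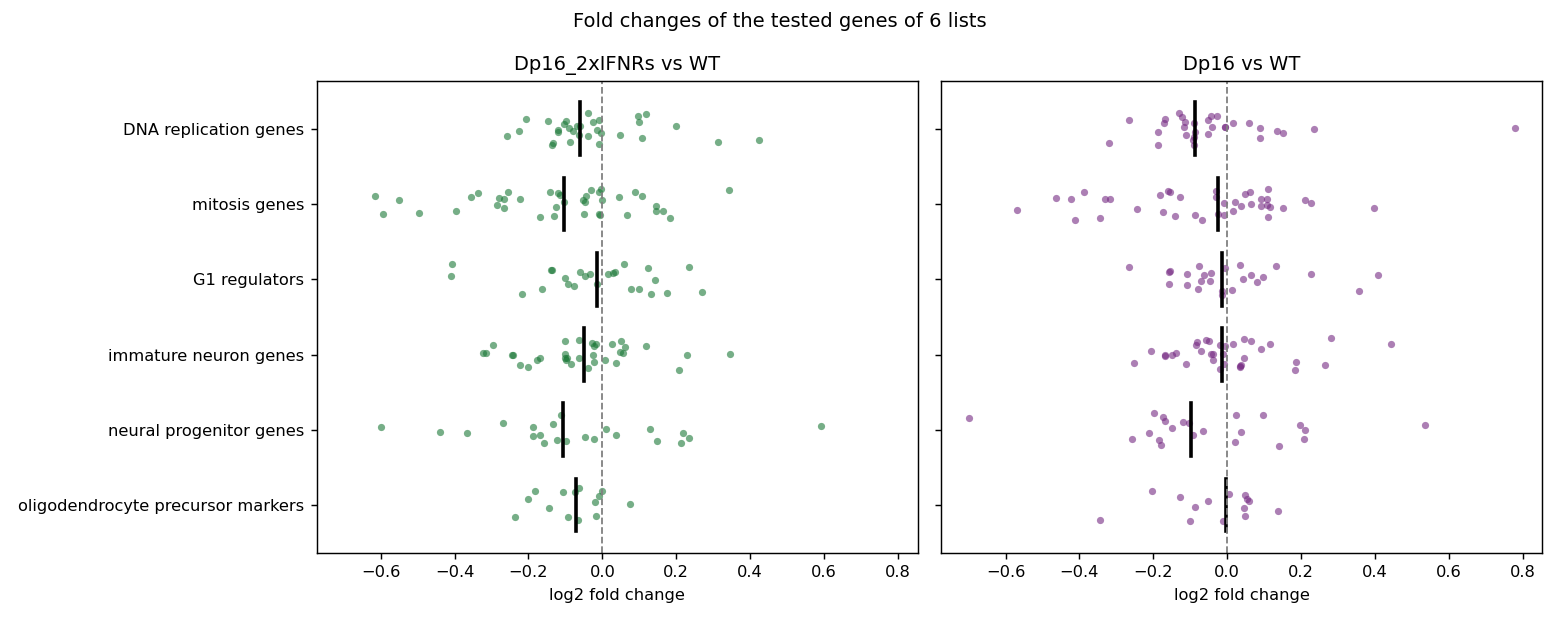
Log2 fold changes (horizontal axis) of the tested genes of 6 lists (vertical axis), in Dp16_2xIFNRs vs WT on the left and Dp16 vs WT on the right. Each point is a gene and the black bar the list's median, which lies between -0.11 and 0.00 in every list.

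Between Dp16_2xIFNRs and Dp16, 0 genes of these 6 lists were called, by edgeR and by DESeq2 alike, and 3 were at an unadjusted p under 0.05. These were Cdkn1c (-0.25, adjusted p = 1), the actin regulator gene Marcksl1 (-0.28, adjusted p = 1) and Neurod2 (-0.16, adjusted p = 1), all lower in Dp16_2xIFNRs. Of the other genes of smallest p, Cenpf was at -0.39, Kif2c at -0.58, Rfc4 at 0.21, Mcm4 at 0.08, Ccne1 at -0.09, Hes1 at -0.18, Dll1 at -0.16, Enpp6 at 0.16 and Matn4 at -0.12, each with an adjusted p = 1.

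Females and males were compared over all 18 libraries, 9 of each sex. edgeR called 0 of 10 members, against 0.0641% of all genes tested, and DESeq2 0. At an unadjusted p under 0.05 there was 1, Mcm2, against 6.64% of all genes, with a log2 fold change of -0.15 in females against males (SE 0.0660, adjusted p = 0.741). Mcm2 averaged 4.70 ± 0.309 CPM in females and 5.22 ± 0.457 CPM in males, and Sox4 26.2 ± 3.85 CPM in females and 24.01 ± 3.02 CPM in males (SD, n = 9 each). The log2 fold change of Sox4 was 0.12 (SE 0.0586, adjusted p = 0.741). Tests of whether the genotype difference itself differed between the sexes called 0 of 10 members, and 0 of all genes, in each of the 3 comparisons. No member had an unadjusted p under 0.05 there, against 5.87% of all genes in Dp16_2xIFNRs against WT, 3.08% in Dp16 against WT and 1.87% in Dp16_2xIFNRs against Dp16. With 3 libraries per sex and genotype the errors were wide: for Mki67 the interaction in Dp16_2xIFNRs against WT was -0.67 (SE 0.405, adjusted p = 0.853).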

How the data were processed

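PolyA RNA of mouse brain cortex was sequenced as 18 libraries, which were grouped by the labels. TRIzol extraction and a strand-specific Tecan/Nugen library kit are given per the labels' protocols. The submitters' processing notes name HISAT2 2.1.0, SAMtools 1.5, HTSeq 0.6.1 and build GRCm38. How strand and multiply matching reads were counted is not given in the sources used here. The authors deposited raw counts per gene. The deposited RPKM values equalled count over library total and gene length for 31735 of 31735 genes checked, within a relative tolerance of 1e-06, and serve here to compare levels between genes.

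Genes were kept by filterByExpr by group (minimum count 10), scaled by TMM and tested with edgeR 4.0.16 (quasi-likelihood F test, robust) in R 4.3.3, fitting genotype plus sex to the 18 libraries together. This left 14 residual degrees of freedom, with a common biological coefficient of variation of 12.2%. Calls were made below 0.05 after Benjamini-Hochberg adjustment over 18717 genes. An adjusted p is from edgeR where no other tool or permutation is named. Intervals are 95% intervals of that model. Code was tested on simulated data.

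Pairs of genes were correlated in log2 CPM (prior count 2) less the genotype and sex means, with 100000 two-sided permutations within genotype and Benjamini-Hochberg adjustment over 45 pairs. Alternatives were DESeq2 1.42.0, limma 3.58.1 on voom values or on log2(RPKM + 0.1) and log2(RPKM + 1), other scalings, filters and terms, and fits without each library. The text names the members, from each list and comparison up to 4 called genes or otherwise up to 2 of smallest p, and the 5 genes most like Sox4. Members and lists were chosen with earlier results of these data known. Positions are from GENCODE M21 and promoters from RefSeq.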

Additional observations from a re-analysis of the deposited data

How the results depend on the processing

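No result turned its direction past the threshold under the alternatives run. DESeq2 called 250 genes in Dp16 against WT (edgeR 140), with 1 of 10 members, Dcx, and 3 list genes, Tnc, Enpp6 and Dlx6os1. It called 405 genes in Dp16_2xIFNRs against WT (edgeR 196), with 2 list genes, and 21 genes between the sexes (edgeR 12). The count of list genes called in Dp16_2xIFNRs against WT, 1 in edgeR, was 0 with limma on log2(RPKM + 0.1) or log2(RPKM + 1) and 2 with age as a further term. Replicate numbers are shared by the genotypes. With genotype and sex removed, same-numbered libraries correlated above 0.1 in 14 of 18 pairs (median r = 0.325). Of 18 libraries, 7 correlated best with their own number. Values for libraries of different numbers are not given here, so these values do not settle whether the numbers mark pairs. The main fit did not use the numbers. With the replicate number as a block, 304 genes and 2 list genes were called in Dp16_2xIFNRs against WT, and no call on a member changed. Some libraries of different genotypes also share a number in their descriptions whose meaning is not given. With it as a random block in limma-voom (consensus correlation 0.25), 271 genes were called in Dp16_2xIFNRs against WT and 144 in Dp16 against WT, against 199 and 136 without it, and the counts of members and list genes called did not change. The cause of these moves was not tested.

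Leaving out 1 library gave 102 to 147 genes called in Dp16 against WT, 121 (without Dp16_2xIFNRs replicate 2) to 270 (without WT replicate 6) in Dp16_2xIFNRs against WT, and 3 to 4 in Dp16_2xIFNRs against Dp16. Members called ranged from 0 to 1 in each comparison with WT; in Dp16_2xIFNRs against WT the 1 was Sox4, which missed the threshold without WT replicate 1, 2 or 3 or Dp16_2xIFNRs replicate 2, 3, 4 or 6. List genes called ranged from 0 to 1 in Dp16 against WT and from 0 to 3 in Dp16_2xIFNRs against WT. The sex by genotype terms were refitted only under the scaling and filter alternatives, and Cdk1 did not reach 1 CPM in 6 libraries and has no value under that filter. Counts of 7 to 24 per library limit the values of Cdk1.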
